A study of Mus musculus with 4 samples.

Results

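Cytosolic ribosomal protein genes encode the proteins of the ribosome that translates nuclear mRNAs. Members were rows of the count table whose symbol had the form Rpl or Rps with a number and a short suffix, together with Rplp0, Rplp1, Rplp2 and Rpsa. This took 84 of 24391 rows. Rpl29 and Rps18 were set against the other members because they were chosen by the near loss of their counts in Rest pKO pancreas, so their values are given as a description and without a test.

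RNA-seq was performed on pancreas of E18.5 mouse embryos, with 2 control libraries and 2 Rest pKO libraries. Control embryos carried Pdx1Cre with wild-type REST (Pdx1Cre RESTwt), and Rest pKO embryos carried Pdx1Cre with both REST alleles flanked by loxP sites (Pdx1Cre RESTLoxP/LoxP). All embryos thus carried the Cre transgene, on a mixed background with C57BL/6. Pdx1Cre acts in the pancreatic epithelium and spares the mesenchyme, and the conditional allele loses its exon 4. The libraries are of whole organ, so fewer cells of a type and less RNA per cell cannot be told apart. The methods describe 3 pancreas per genotype. The deposited counts hold 2 libraries per genotype, and which pancreas these came from is not stated.

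The ribosome has a small subunit, which reads the mRNA, and a large subunit, which joins amino acids. The mRNAs of its proteins share a control of translation through mTOR. Mammalian ribosomal protein genes have left many processed pseudogenes, intron-less copies of their mRNAs that lie elsewhere in the genome. Secretory cells such as the acinar cells of the pancreas, which make digestive enzymes, are rich in ribosomes.

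The stretches below show how far these genes and their copies match. Only uniquely mapped reads were counted, so a read pair that lies wholly in sequence repeated elsewhere is not counted. The stretches shown have 60 bases and are shorter than a read of 100 bases. Sequences are from the NCBI build 37 (mm9) genome, written 5′ to 3′ on the strand of the gene, and capitals mark the bases that differ between a gene and its copy. The first Rpl29 stretch, chr9:106333400-106333459 on the plus strand, opens the largest coding exon, exon 4 of 4. The same 60 bases occur 10 times in the genome, 1 of them in the copy at chr9:7751827-7751886.
Rpl29: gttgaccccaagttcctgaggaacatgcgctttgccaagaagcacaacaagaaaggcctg
A second stretch of that exon, chr9:106333695-106333754, differs at 2 bases from chr9:7752122-7752181 in the copy. It was picked for having the most differences among the coding stretches compared. The gene's version occurs once in the genome and the copy's version 3 times.
Rpl29: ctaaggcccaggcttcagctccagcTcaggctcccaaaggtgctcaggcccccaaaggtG
Rpl29 copy: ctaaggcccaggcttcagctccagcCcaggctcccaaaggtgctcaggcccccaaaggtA
In Rps18 the first 60 bases of the largest coding exon, exon 3 of 5, match the copy on chr8 with 0 differences and occur 4 times in the genome. The stretch chr17:34088991-34089050 on the minus strand, in exon 5 of 5, was again picked for the most differences. It differs at 1 base from its copy at chr8:109786693-109786752. The gene's version occurs 2 times in the genome and the copy's version once.
Rps18: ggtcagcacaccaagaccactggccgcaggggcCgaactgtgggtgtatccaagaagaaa
Rps18 copy: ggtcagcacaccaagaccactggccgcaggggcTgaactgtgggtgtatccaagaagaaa
Rps27, a zinc-finger protein of the small subunit, is shown as the member with the fewest unique bases. Its stretch chr3:90016907-90016966 on the minus strand, in exon 3 of 4, occurs 3 times in the genome, and it is repeated without a difference at chr9:114891651-114891710.
Rps27: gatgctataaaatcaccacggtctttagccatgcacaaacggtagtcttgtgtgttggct

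Counts per library summed to between 16936759 and 24134100. CPM below are counts divided by TMM-scaled library size, and SE is the standard error of a log2 fold change from edgeR. Rest, the deleted gene, measured 14.2 and 15.7 CPM in controls against 12.1 and 9.16 CPM in Rest pKO. Its log2 fold change of −0.49 (SE 0.23) missed the threshold (edgeR adjusted p = 0.593), and counts over all exons and cells do not measure the loss of exon 4. The share of counts taken by acinar enzyme genes was 42.2% and 40.7% in controls and 42.1% and 48.7% in Rest pKO. Pancreatic markers of acinar, endocrine, duct and mesenchymal cells all had counts. Defining red cell genes Hba-a1 and Hbb-b1 and the gut gene Fabp2 had no count in any library. Only uniquely mapped reads were counted, so the lack of a count does not show that an mRNA was absent.

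Counts of Rpl29 and Rps18 were almost lost in both Rest pKO libraries. Rpl29, a protein on the surface of the large subunit, had 1558 and 3363 counts in controls 1 and 2 and 32 and 24 counts in Rest pKO 1 and 2. This is 92.7 and 169.6 CPM in controls against 1.48 and 1.09 CPM in Rest pKO. Control libraries averaged 131 ± 54.4 CPM and Rest pKO libraries 1.29 ± 0.276 CPM (SD, n = 2 each), which is 0.982% of the control mean, and the log2 fold change was −6.66 (SE 0.39). Rps18, a protein in the head of the small subunit, had 1323 and 3003 counts in controls and 184 and 150 counts in Rest pKO. Its levels were 78.8 and 151 CPM in controls against 8.53 and 6.83 CPM in Rest pKO. The Rest pKO mean was 6.67% of the control mean, with a log2 fold change of −3.91 (SE 0.35). In neither gene did the Rest pKO and control libraries overlap.

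**Figure D1:**
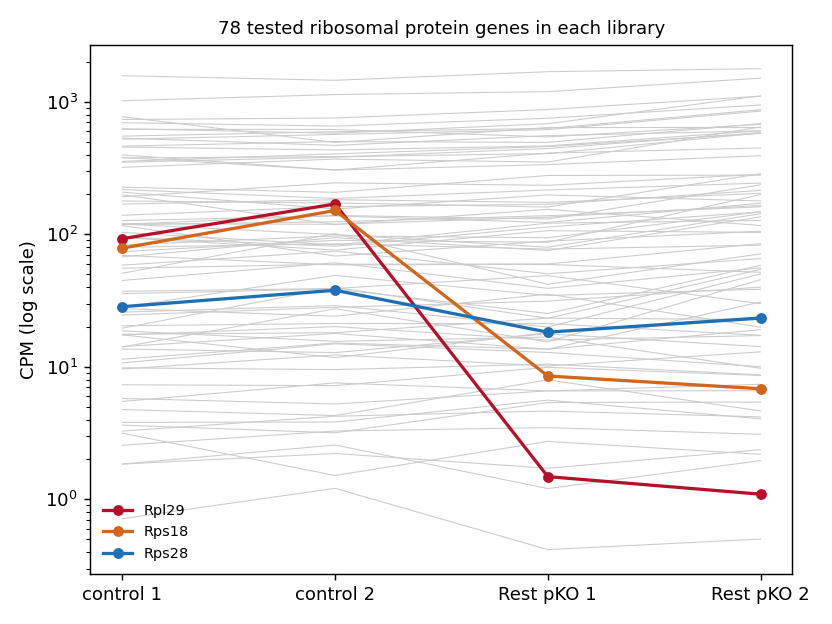
CPM (log scale) of the 78 tested ribosomal protein genes in the 4 libraries, where a line joins the values of 1 gene and has no meaning of order. Rpl29 (1.48 and 1.09 CPM) and Rps18 (8.53 and 6.83 CPM) leave the course of the other genes (grey) in the Rest pKO libraries, while Rps28 (18.3 and 23.4 CPM) stays close to it.

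Among the 14550 genes tested, Rpl29 had the lowest log2 fold change of all and Rps18 the eighth lowest. On the scale of CPM per kb of mRNA, which corrects for length but not for how much of an mRNA is unique in the genome, Rpl29 was rank 26 of 83 members in controls and rank 76 in Rest pKO. Rps18 was at rank 22 in controls and at rank 66 in Rest pKO. Both genes also differed between the controls, where control 2 was 1.83 times control 1 for Rpl29 and 1.92 times for Rps18. This ratio had a median of 1.05 in the other 76 tested members, from 0.480 to 2.03, and only 3 of them exceeded that of Rpl29 and 3 that of Rps18. Markers of red cells, leukocytes and mesenchyme mostly lay lower in Rest pKO as well, while the summed levels of liver and gut markers overlapped between the groups. Red cell markers had the same order of libraries, with a summed level over 5 genes of 30.4 and 122.9 CPM in controls and 20.4 CPM in each Rest pKO library. Of these 5, 3 were tested and lay below 0, 2 of them below both controls in both libraries, as were 21.2% of all genes tested. The defining genes Hba-a1 and Hbb-b1 were at 0, which does not show that their mRNAs were absent. Of 5 leukocyte markers all lay below 0 and 3 below both controls, with 169 and 204 CPM in controls against 86.4 and 139 CPM in Rest pKO. Of 6 mesenchyme markers 5 lay below 0 and 3 below both controls, with 7708 and 7073 CPM against 4095 and 6634 CPM. The part of these cells in the counts of Rpl29 and Rps18 was not tested.

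None of the 10 genes nearest Rpl29 and 1 of the 10 nearest Rps18 were called lower, where 0.0275% of all genes tested were called lower. Rpl29 lies on chromosome 9 from 106331785 to 106333899 and Rps18 on chromosome 17 from 34088944 to 34092946 (mm9). Of the 10 nearest tested genes around Rpl29, 5 on each side, 7 had a log2 fold change above 0 and 3 below (median 0.18), and none passed edgeR's test. Acy1, an aminoacylase 1.43 kb beyond the end of Rpl29, measured 13.8 and 10.8 CPM in controls against 16.8 and 20.4 CPM in Rest pKO. Parp3, a poly(ADP-ribose) polymerase 38.8 kb beyond it, measured 7.62 and 6.71 CPM against 2.64 and 3.05 CPM (−1.33, edgeR adjusted p = 0.357). Dusp7, a MAP kinase phosphatase 53.7 kb before it, measured 19.4 and 25.9 CPM against 13.4 and 13.2 CPM (−0.77, edgeR adjusted p = 0.424). Of the 10 genes around Rps18, 6 lay above 0 and 4 below (median 0.091). Vps52, a vesicle tethering protein whose gene overlaps the start of Rps18, measured 34.3 and 33.2 CPM in controls against 44.3 and 47.6 CPM in Rest pKO. The strand setting of the counting is not stated, so reads in this overlap cannot be told apart. B3galt4, a galactosyltransferase 0.511 kb on the other side, measured 5.0 and 4.74 CPM against 3.71 and 5.83 CPM. H2-K1, an MHC class I gene 40.0 kb away, was the only neighbour called lower, with 72.8 and 116 CPM in controls against 11.1 and 13.5 CPM in Rest pKO, and it was not called without Rest pKO 2. Between it and Rps18, H2-K2 measured 0.536 and 1.36 CPM against 0.417 and 0.319 CPM (edgeR adjusted p = 0.589).

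**Figure D2:**
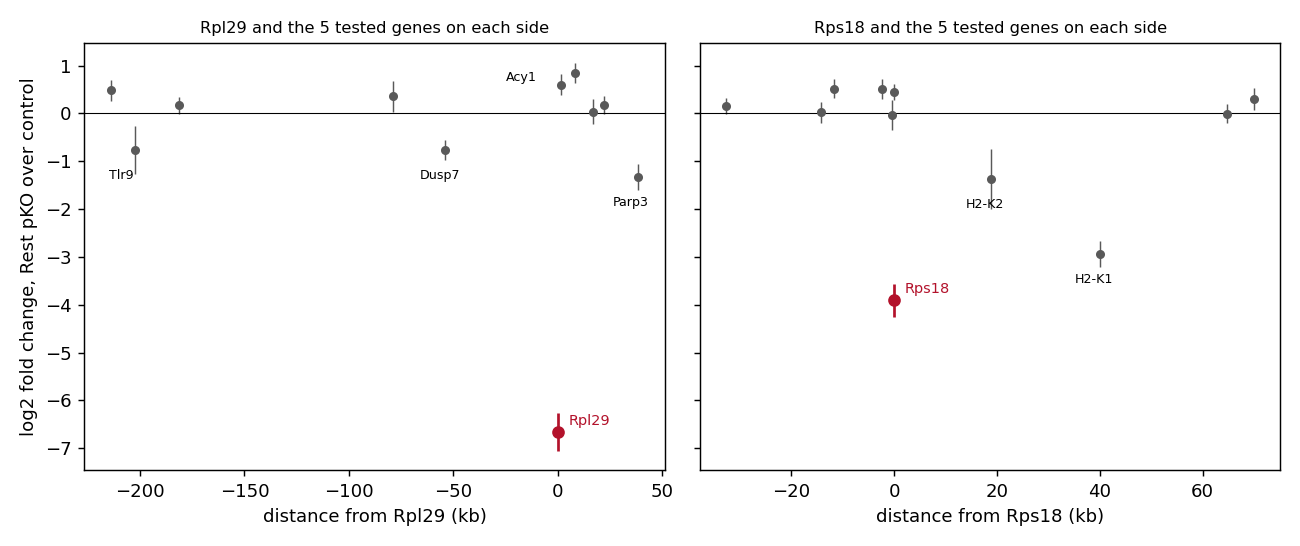
Log2 fold change (Rest pKO over control, bars are standard errors) of Rpl29, Rps18 and the 5 nearest tested genes on each side, by distance in kb from the nearer end. Acy1, next to Rpl29, lay at 0.60 and Vps52, which overlaps Rps18 and is drawn at 0 kb, at 0.45, while H2-K1 at 40.0 kb lay at −2.94.

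Of the 84 members, 78 passed the filter on low counts and 6 did not. Of the 76 tested members other than Rpl29 and Rps18, none changed at an adjusted p under 0.05 in edgeR's quasi-likelihood test. The lowest adjusted p among the 76 was 0.494, for Rps28. At p under 0.05 before adjustment, 2 of the 76 were higher (Rpl7a and Rpl28) and 1 was lower (Rps28). Among all genes tested, 0.0275% were called lower and 0% higher, and at the unadjusted p 5.61% were lower and 3.26% higher. DESeq2 gave the lowest adjusted p of these members as 0.405 and edgeR with sex as a term as 0.294, both for Rps19. In these fits, in the same order, 0.533% and 1.29% of all genes tested were called lower and 0.182% and 0.412% higher, and neither called any of the 76. Without Rest pKO 1, edgeR called Rps19, Rpl14 and Rpl19 higher, where 3.05% of all genes were called lower and 0.395% higher. Without Rest pKO 2 none of the 76 was called, and 0% of all genes were called lower and 0.0067% higher.

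The other members leaned slightly higher as a group. Of the 76, 60 had a log2 fold change above 0 and 16 below, with a median of 0.28 and a range from −1.07 to 0.80, while 49.5% of all genes lay above 0 with a median of −0.0048. In Rest pKO both libraries exceeded both controls in 29 of the 76 and lay below both in 3 (Rpl34, Rps28 and Rpl10a), and the groups overlapped in 44. Among all genes tested, 21.5% lay above both and 21.2% below both. The lean rests mainly on Rest pKO 2, which also had the largest share of acinar enzyme counts. It was the highest of the 4 libraries in 45 of the 76, and the median log2 deviation of the members from their own mean was −0.13 and −0.11 in controls and −0.0072 and 0.20 in Rest pKO. Without Rest pKO 2 the median was 0.079, with 49 members above 0, and without Rest pKO 1 it was 0.36, with 59. Taken alone, Rest pKO 1 lay above both controls in 35 members and below both in 16, and Rest pKO 2 above in 50 and below in 11. The corresponding shares above both controls were 46.1% and 65.8% of members and 36.7% and 40.3% of all genes. Summed endocrine markers exceeded both controls in both Rest pKO libraries and summed acinar markers in Rest pKO 2 only, while duct markers were mixed. All 11 acinar markers lay above 0, 3 of them above both controls in both libraries, with a summed level of 208846 and 193028 CPM in controls against 202277 and 287743 CPM in Rest pKO. All 8 endocrine markers lay above 0, 7 of them above both controls, with 3014 and 2025 CPM against 4379 and 6484 CPM. Of 6 duct markers 2 lay above 0 and 4 below, with 840 and 734 CPM in controls against 930 and 776 CPM in Rest pKO. The part of these cell types in the lean was not tested.

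Genes with a short total length of exons leaned higher as well, and exon length here is this total per gene. Log2 fold changes fell with exon length over the genes tested (Spearman's rho −0.296 over 14156 genes that share the 4 libraries), and members had a median exon length of 1444 bases against 3694 in all genes tested. With the trend of each library with exon length removed, the median of the other members was 0.16 and 47 of 75 lay above 0.

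**Figure D3:**
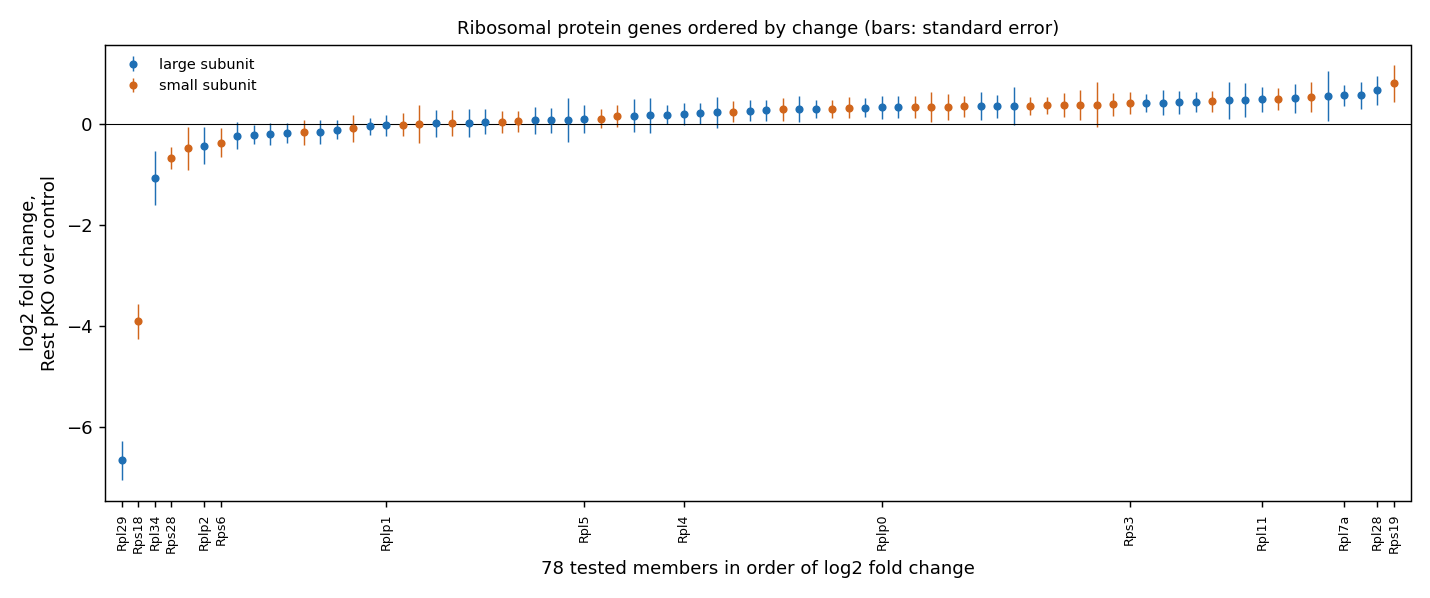
Log2 fold change (Rest pKO over control) of the 78 tested members in order, a few of them named, with standard errors from edgeR, for large (blue) and small (orange) subunit proteins. Rpl29 (−6.66) and Rps18 (−3.91) stand apart at the left, and the other 76 lie between −1.07 and 0.80.

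Small subunit proteins other than Rps18 lay above 0 in 25 of 31 (median 0.32). Rps19, needed for maturation of the small subunit rRNA, had the highest log2 fold change of the tested members, at 74.1 and 90.2 CPM in controls against 87.2 and 199.7 CPM in Rest pKO (0.80, SE 0.36, edgeR adjusted p = 0.574). Only Rest pKO 2 was high, and the groups overlapped. Rps14, which lies on the platform of the subunit, measured 321 and 369.9 CPM in controls against 351 and 646 CPM in Rest pKO, again with an overlap. Rps15, a protein of the subunit head, measured 350.3 and 382 CPM against 445 and 586 CPM, with both Rest pKO libraries above (0.49, edgeR adjusted p = 0.572). Rps3, a protein at the mRNA entry site, measured 736 and 755 CPM in controls against 875 and 1104 CPM in Rest pKO. The level of Rpsa, the laminin receptor homologue at the back of the subunit, was 381 and 306 CPM and then 410.3 and 449 CPM. These last 3 genes are among 13 of the 31 small subunit members whose Rest pKO libraries both exceeded the controls, as did those of 21.5% of all genes tested. Others among them were Rps2, Rps4l, Rps9, Rps12, Rps23 and Rps25, with log2 fold changes from 0.30 to 0.45. In Rps3a1, Rps10, Rps15a, Rps20, Rps21, Rps24, Rps26 and Rps29 the groups overlapped, with log2 fold changes from 0.0049 (Rps29) to 0.39 (Rps10).

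Rps28, a small protein near the mRNA exit, was the small subunit member with the lowest log2 fold change after Rps18. It measured 28.5 and 37.8 CPM in controls against 18.3 and 23.4 CPM in Rest pKO, so that the groups did not overlap (log2 fold change −0.67, SE 0.23). Its gene lies 127 kb from Rps18 on chromosome 17. Rps6, whose phosphorylation by S6 kinase is a common readout of mTOR, measured 18.7 and 15.6 CPM in controls against 16.8 and 9.75 CPM in Rest pKO. Rps13 measured 1.85 and 2.57 CPM against 1.21 and 1.96 CPM, and Rps7, with Rps16 and the ubiquitin fusion gene Rps27a, also had values just below 0 and overlapping groups. Rps27a, which is cleaved into ubiquitin and a small subunit protein, measured 9.82 and 9.53 CPM in controls against 10.5 and 8.70 CPM in Rest pKO.

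Large subunit proteins other than Rpl29 lay above 0 in 35 of 45 (median 0.23). The stalk proteins, which recruit elongation factors, differed among themselves. Rplp0, its base, measured 1020 and 1135 CPM in controls against 1195 and 1510 CPM in Rest pKO, with no overlap (log2 fold change 0.33, SE 0.23). Rplp1 measured 621 and 619 CPM against 544 and 677 CPM, so its controls lay between the Rest pKO libraries. Rplp2 measured 50.9 and 101 CPM in controls against 42.0 and 71.2 CPM in Rest pKO, and its log2 fold change was −0.43 (SE 0.36, edgeR adjusted p = 0.719).

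Rpl5 and Rpl11 bind 5S rRNA and, when free of the ribosome, the p53 inhibitor MDM2. Rpl11 measured 17.4 and 11.8 CPM in controls against 18.2 and 22.8 CPM in Rest pKO, above both controls in both libraries (log2 fold change 0.49, SE 0.25, edgeR adjusted p = 0.618). Rpl5 measured 27.5 and 24.1 CPM against 35.4 and 19.95 CPM, with an overlap.

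Rpl7a, an RNA-binding protein of the large subunit, measured 95.1 and 81.3 CPM in controls against 114 and 148 in Rest pKO (log2 fold change 0.57, SE 0.20, edgeR adjusted p = 0.496). Rpl28 measured 3.63 and 3.18 CPM against 5.38 and 5.42 CPM (0.67, SE 0.28, edgeR adjusted p = 0.558). In both genes all Rest pKO values exceeded all control values. Rpl41, a very short basic peptide that was not placed in the annotation, measured 627 and 580.3 CPM in controls against 684 and 1111 CPM in Rest pKO. Rpl37 measured 14.1 and 27.4 CPM against 15.4 and 45.5 CPM, and Rpl14 measured 119 and 139 CPM against 131 and 237 CPM, with 1 high Rest pKO library in each. Rpl34 measured 0.714 and 1.21 CPM in controls against 0.417 and 0.501 CPM in Rest pKO, the lowest log2 fold change after Rpl29 and Rps18 (−1.07, SE 0.54, edgeR adjusted p = 0.618) at a level near the filter. Rpl3, Rpl4, Rpl6, Rpl7, Rpl8, Rpl13a, Rpl17, Rpl21, Rpl27a, Rpl31 and Rpl32 had both Rest pKO libraries above the controls, with log2 fold changes from 0.20 to 0.43. Rpl10a, with Rpl34, was the only tested large subunit member other than Rpl29 with both below. Groups also overlapped in Rpl9, Rpl10, Rpl12, Rpl13, Rpl15, Rpl18, Rpl19, Rpl23, Rpl23a, Rpl24, Rpl27, Rpl35, Rpl35a, Rpl36, Rpl36a, Rpl37a, Rpl38 and Rpl39, whose log2 fold changes ran from −0.23 (Rpl23) to 0.48 (Rpl36a).

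Among the member paralogues listed here, groups overlapped in all but Rps4l. Rpl22 measured 218 and 186 CPM in controls against 216 and 244 CPM in Rest pKO, and its paralogue Rpl22l1 measured 44.9 and 61.0 CPM against 39.1 and 55.8 CPM. Rpl7l1, a paralogue of Rpl7, measured 79.9 and 84.8 CPM against 77.4 and 82.9 CPM. Rps27l measured 127 and 138 CPM against 123.01 and 172 CPM. Rps4x, on the X chromosome, measured 463 and 501 CPM against 495 and 686 CPM, and Rps4l measured 17.6 and 18.1 CPM against 23.3 and 22.8 CPM.

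The 6 members that did not pass the filter were too low to test. Of these, 3 are paralogues with restricted expression. Rpl10l, which replaces Rpl10 in male germ cells, had no count. Rpl39l, also a germ cell form, had 1 count in control 2 and none elsewhere. Rpl3l, the muscle form of Rpl3, had 6 and 3 counts in controls and 2 and 9 counts in Rest pKO. Rpl26 had no count in any library, Rpl30 had 4 and 8 counts in controls and 0 and 3 in Rest pKO, and Rps27 had 1 count in each control and 8 and 9 counts in Rest pKO. These last 3 encode standard ribosomal proteins, and Rps27 has the tested paralogue Rps27l.

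Counted level moved with how much of the mRNA is unique in the genome. For each member with a transcript (83 of 84), all 100-base windows of the mRNA were searched in the genome. A window was taken as found once, or unique, if it matched nowhere outside its own gene, which includes windows across exon junctions. A window of 1 read is a stricter measure than a read pair. The median share of windows found once was 53.2% in members, from 0.407% to 100%, with 40 of 83 under 50%. Over the 13739 genes tested with a transcript the median was 100%, and 1.75% were under 50%. Mitochondrial ribosomal protein genes, which belong to the other ribosome of the cell, had a median of 100% over 77 genes.

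Mean level per kb of mRNA and share of unique windows had a Spearman's rho of 0.48 over 83 members, which share the 4 libraries and their depth. Members under 25% unique (n = 22) had a median of 13.6 CPM per kb. The median was 104 between 25% and 50% (n = 18), 142 between 50% and 75% (n = 16) and 237 from 75% (n = 27). Rps27, the member with the smallest share, had 0.646 CPM per kb, while Rpl32, at 99.3%, had the highest level with 1476 CPM per kb. Next came Rplp1 (1243), Rpl4 (1143) and Rplp0 (895), and the lowest tested members were Rpl34 (1.14), Rps13 (3.26), Rpl23a (4.28) and Rpl24 (4.58). Rpl34 was low at 75.6% unique and Rpl30 at 65.8%, and Rpl26, at 46.8%, had no count.

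**Figure D4:**
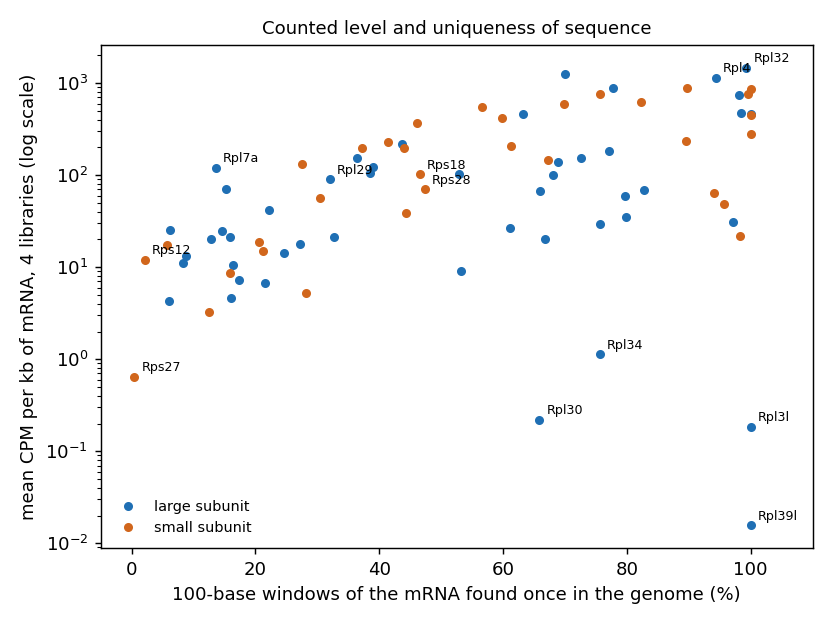
Mean CPM per kb of mRNA over the 4 libraries (log scale) against the share of 100-base windows found once in the genome, 1 point per member with a count and a transcript. The 22 members under 25% have a median of 13.6 CPM per kb and the 27 from 75% one of 237, and Rpl29 (32.0%) and Rps18 (46.5%) lie in the middle.

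Rpl29 and Rps18 were not at an end of this order. Of their windows 32.0% (203 of 634) and 46.5% (233 of 501) were unique, and 26 and 37 members had a smaller share. Copies that held at least 50% of the 30-base words of the mRNA numbered 8 for Rpl29 and 4 for Rps18, against 15 for Rpl7a, the most of any member, and 47 of 83 members had at least 1. Among the other members, the log2 fold change and the share of unique windows had a rho of 0.13 (n = 75), and the members under 25% unique had a median log2 fold change of 0.27 against 0.33 in those from 75%. Which of the gene and its copies the remaining reads of Rpl29 and Rps18 came from was not tested.

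The ribosomal protein genes together took 1.44% and 1.53% of all counts in controls and 1.59% and 1.76% in Rest pKO. With acinar enzyme genes left out of the total, the shares were 2.49%, 2.57%, 2.74% and 3.43% in the same order. Both Rest pKO libraries were above both controls by either total, and with 2 libraries a group no test of this was made.

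Other genes that make or use ribosomes showed no call in edgeR. Fau, which encodes a ribosomal protein fused to a ubiquitin-like protein and falls outside the symbols, measured 3.75 and 4.89 CPM in controls against 4.91 and 4.87 CPM in Rest pKO. Of 17 elongation factor and related genes 11 lay above 0 (median 0.12), of 34 initiation factors 22 (median 0.10), and of 61 ribosome biogenesis genes 40 (median 0.069). Of 77 mitochondrial ribosomal protein genes 68 lay above 0 (median 0.19). Mrps10, of the small mitochondrial subunit, lay lowest, at 10.001 and 11.4 CPM in controls against 6.26 and 5.83 in Rest pKO (log2 fold change −0.82, SE 0.23, edgeR adjusted p = 0.433). Of 18 genes of mTOR and MYC signalling 10 lay above 0 (median 0.0073).

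Of 20 target genes of p53, which responds to free Rpl5 and Rpl11, 12 lay above 0, with a range from −0.93 to 0.86. The median was 0.071, and −0.012 with the length trend removed. At edgeR p under 0.05 before adjustment, 5 were higher and 1 lower, against 3.26% and 5.61% of all genes tested. A link of these genes to the ribosomal protein genes was not tested. Cdkn1a, the cell cycle inhibitor p21, measured 59.1 and 82.7 CPM in controls against 129 and 128 in Rest pKO (log2 fold change 0.86, SE 0.21). It did not pass edgeR's test (adjusted p = 0.396) and passed DESeq2's (adjusted p = 0.0447). Sesn1, a stress-induced inhibitor of mTOR signalling, measured 48.2 and 51.2 CPM against 86.2 and 75.1 CPM (log2 fold change 0.70, edgeR adjusted p = 0.408).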

How the data were processed

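RNA treated with DNase was sequenced in 100-base read pairs, which the authors aligned to mm9 with STAR. Reads that mapped uniquely were counted per UCSC gene with featureCounts (1.5 per the submitters' processing notes). The deposited values are these raw counts per gene symbol. Strand setting, and whether pairs or reads were counted, are not given in the sources used here. Libraries were grouped by genotype from the labels.

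From the counts, 14550 genes passing filterByExpr were normalized by TMM and tested with edgeR 4.0.16 (glmQLFit and glmQLFTest, genotype as the only term, R 4.3.3) with Benjamini-Hochberg adjustment over all genes at 0.05. DESeq2 1.42.0 was an alternative. The procedure was tested on simulated data. The biological coefficient of variation was 0.211, with 2 residual and 5.48 borrowed degrees of freedom. Because nothing says that libraries are separate litters or extractions, p-values measure the spread between these libraries. Xist was above 1000 counts in control 1 and Rest pKO 2 only, so each genotype holds 1 female and 1 male.

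Positions and transcripts came from Gencode vM1 (NCBI build 37) by symbol, which placed 83 members, 2 of them by synonym, and no coordinates were converted. Windows of 100 bases and words of 30 bases were matched to that genome, on both strands.

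Same-numbered libraries of the 2 genotypes deviated with r = 0.048 over 14550 genes, so numbers were not taken as pairs. Members and gene lists were chosen with earlier results of these data known. The rule names any member, and in detail Rpl29 and Rps18, the 10 other largest changes, the 4 highest and 4 lowest per kb, textbook members, paralogue pairs, 5 neighbours on each side and up to 4 genes with the smallest p of each list. Alternatives were normalization, filters, tool, a replicate block, a length trend and leaving out each library. Sex as a term, totals without the 10 most abundant genes and each Rest pKO library alone were chosen after seeing the data. A few genes enter counts and figures without a name and are not reported singly here.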

Additional observations from a re-analysis of the deposited data

How the results depend on the processing

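The members called lower were Rpl29 and Rps18, which were chosen for this change, so their calls support nothing. Leaving out single libraries gave 0 to 2 of them called, with 0 without Rest pKO 2, where the log2 fold changes were −6.46 and −3.75. Members called higher numbered 0 to 3. The 3, without Rest pKO 1, were Rps19 (1.28, adjusted p = 0.0289), Rpl14 (0.88, adjusted p = 0.0481) and Rpl19 (0.87, adjusted p = 0.0441, edgeR), with a lone Rest pKO library assumed to vary like the controls. The median log2 fold change of the other 76 members was 0.28 and ran from 0.079 to 0.36 when single libraries were left out. With the length trend removed it was 0.16. The count of these members above both controls was 29, and 50 and 35 with Rest pKO 2 and Rest pKO 1 alone. Under the replicate block the median was 0.26, 2 members were called lower and 0 higher, and no call changed.

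Among the translation gene lists, 0 genes were called in edgeR. DESeq2 called 1 higher (Cdkn1a). Without Rest pKO 1, 1 gene was higher (Eif2b2) and 1 lower (Larp4), where 0.395% of all genes tested were called higher and 3.05% lower, and without other libraries 0. The mean share of counts in ribosomal protein genes, 1.48% in controls and 1.67% in Rest pKO, became 2.53% and 3.08% without acinar enzyme genes and 2.34% and 2.84% without the 10 most abundant genes. When single libraries were left out it ran from 1.44% to 1.53% and from 1.59% to 1.76%. A level of 1 CPM was worth 16.9 to 24.1 counts per library before TMM scaling, so the values of Rpl34, Rpl30 and Rps27 rest on few counts.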

Other observations

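Rows of ribosomal protein pseudogenes and retrogenes that the symbols did not take had counts as well. Rpl14-ps1 measured 455 and 415 CPM in controls against 536 and 505 CPM in Rest pKO, with the groups apart. Rpl37rt measured 245 and 243 CPM against 248 and 349 CPM, and Rpl36al, an expressed relative of Rpl36a, measured 112 and 81.7 CPM against 130.1 and 131 CPM. Rps15a-ps4 measured 4.17 and 4.59 CPM in controls against 9.09 and 6.51 in Rest pKO (log2 fold change 0.83, SE 0.28, edgeR adjusted p = 0.495). Rpl34-ps1, Rplp2-ps1 and Rps27rt had no count in any library. Of these rows, the counts may hold reads of the parent gene, and how many was not tested.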
